A study of Mus musculus with 6 samples.

Results

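Retinoic acid made inside a cell is bound by carriers in the cytoplasm, is produced from retinal by dehydrogenases and acts through nuclear receptors. The genes described here were 9 of this kind, namely the carriers *Crabp1* and *Crabp2*, the retinal dehydrogenases *Aldh1a1*, *Aldh1a2* and *Aldh1a3*, the receptors *Rara*, *Rarb* and *Rarg*, and the retinal reductase *Dhrs3*. They were picked by gene symbol, with the difference between the groups already in view, and all 9 were found among the 14735 genes of the table. Bulk RNA-seq had been made from 6 colonies of an assay of fibroblastic colony forming units (CFU-Fs), in which bone marrow cells plated sparsely grow into separate colonies of stromal cells. The 3 tdTOMATO+ CFU-Fs and the 3 tdTOMATO- CFU-Fs came from C57BL/6 mice aged 2 months that carried Col10a1-Cre and R26-tdTomato, so both groups held the same alleles and differed in the fluorescence by which colonies were picked. Cre under the control of *Col10a1* is active in hypertrophic chondrocytes, the enlarged cartilage cells of the growth plate, and marks those cells and their descendants with tdTOMATO for good. Each library held the RNA of all cells inside 1 cloning cylinder at day 10 of culture in hypoxia, and the comparison asked how colonies traced to hypertrophic chondrocytes differ from colonies of other sources. No source says whether separate mice gave the colonies, so p-values measure only the spread between these colonies.

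Vitamin A (retinol) is oxidised to retinal and then, by the ALDH1A enzymes, irreversibly to retinoic acid, while DHRS3 turns retinal back into retinol. In the nucleus retinoic acid binds RARs, which sit on DNA with an RXR partner and swap corepressors for coactivators when the ligand arrives. CRABP2 is known to hand retinoic acid to the receptors, CRABP1 to hold it in the cytoplasm, and CYP26 enzymes to break it down. In the growth plate retinoic acid signalling is known to bear on chondrocyte maturation, and vitamin A is known to affect bone formation and resorption.

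Between 24085516 and 31046589 reads fell in genes per library. Levels are given as normalized counts, that is, reads per gene divided by a size factor for each library. The test was that of limma, two-sided, with a Benjamini-Hochberg adjusted p under 0.05 over all 14735 genes. Stromal markers were present, with all 12 of a fixed list measured, a summed level of 1072368 to 1356536 normalized counts in the tdTOMATO+ colonies and of 1276529 to 1463414 in the tdTOMATO- colonies, and 0 of the 12 past the test. In 1 of the 12 every tdTOMATO+ colony lay above every tdTOMATO- colony, against 9.89% of all genes. This was *Lepr*, the leptin receptor of marrow stromal cells, with normalized counts of 408, 354 and 1132 in the tdTOMATO+ colonies, against 97.3, 69.4 and 108 in the tdTOMATO- colonies (limma, log2 fold change 2.59, SE 0.46, adjusted p = 0.0647). The part of such stromal differences in the results below was not tested. Of 6 hypertrophic chondrocyte markers, all measured, 0 were called lower and 1 was called higher in the tdTOMATO+ colonies, against 0.143% and 1.2% of all genes. This was *Mmp13*, a collagenase, at 18036, 12347 and 20535 normalized counts in the tdTOMATO+ colonies, against 3844, 6181 and 5988 in the tdTOMATO- colonies (limma, log2 fold change 1.67, SE 0.26, adjusted p = 0.0452). *Col10a1* itself had normalized counts of 634, 521 and 529 in the tdTOMATO+ colonies, against 597, 1178 and 799 in the tdTOMATO- colonies, and did not pass the test (limma, log2 fold change -0.56, SE 0.24, adjusted p = 0.425). *Sox9*, also of this list, had normalized counts of 874, 615 and 645 in the tdTOMATO+ colonies, against 981, 1121 and 1562 in the tdTOMATO- colonies. Every tdTOMATO+ colony thus lay below every tdTOMATO- colony in *Sox9*, as in 8.33% of all genes. It did not pass the test (limma, log2 fold change -0.77, SE 0.21, adjusted p = 0.183). The tdTomato transcript was not analysed here, so the fluorescence groups were not checked against it. RNA of macrophages was also present. All 12 macrophage markers lay higher in every tdTOMATO+ colony than in every tdTOMATO- colony, against 9.89% of all genes, and 9 of the 12 passed the test, against 1.2% of all genes called higher. They summed to 62724 to 67247 normalized counts in the tdTOMATO+ colonies and to 35666 to 36082 in the tdTOMATO- colonies.

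*Crabp1* stood apart among the 9 genes. Its RNA was higher in each tdTOMATO+ colony than in any tdTOMATO- colony, by 12.3-fold between the group means, while every other gene of the set overlapped between the groups. The differences of *Crabp2*, *Aldh1a1*, *Aldh1a2*, *Aldh1a3* and *Rarb* each moved widely when 1 colony was left out, and *Rarg* and *Dhrs3* had nearly equal levels in all 6. *Rara* had a log2 fold change of -0.48 (SE 0.25), which was -0.68 to -0.25 when 1 colony was left out. The start regions of *Crabp1* and *Rarb* are shown first, because these genes had the highest log2 fold changes of the set. The sequences are those of RefSeq on GRCm38.p6, run 5′ to 3′ on the gene's strand and cover 250 bases before to 50 bases after an annotated start. In the *Crabp1* window (chr9:54764498-54764797, plus strand) capitals mark GGGCGG, the GC box, on either strand. In the *Rarb* window (chr14:16575427-16575726, minus strand) capitals mark a DR5, a pair of hexamers in the same direction with 5 bases between them, which is the arrangement best known from retinoic acid response elements.
Crabp1: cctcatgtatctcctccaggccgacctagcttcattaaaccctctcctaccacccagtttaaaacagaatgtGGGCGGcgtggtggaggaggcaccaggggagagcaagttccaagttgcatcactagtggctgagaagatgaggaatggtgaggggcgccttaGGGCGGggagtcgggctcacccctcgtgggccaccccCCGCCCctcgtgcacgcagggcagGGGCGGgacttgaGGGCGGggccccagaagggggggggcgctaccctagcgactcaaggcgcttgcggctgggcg
Rarb: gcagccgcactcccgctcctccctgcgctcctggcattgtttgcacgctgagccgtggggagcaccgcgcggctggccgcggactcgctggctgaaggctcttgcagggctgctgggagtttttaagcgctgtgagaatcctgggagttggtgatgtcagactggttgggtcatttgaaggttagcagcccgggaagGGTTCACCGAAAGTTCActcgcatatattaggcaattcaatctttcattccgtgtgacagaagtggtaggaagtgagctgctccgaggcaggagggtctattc

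Windows were found for 7 of the 9 genes, 14 windows in all. A DR5 was defined as a pair of hexamers, each of them either AGGTCA or AGTTCA or GGGTCA or GGTTCA, in any order and on either strand, with any 5 bases between. It was found in 1 of the 14 windows, that of *Rarb*, as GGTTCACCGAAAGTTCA from -53 to -37 relative to the start. Of all 32851 windows, 32 held a DR5, or 0.0974%. The same hexamers with 2 bases between them (DR2) or 1 (DR1) were in 0 of the 14 windows, and in 0.268% and 0.222% of all windows. The GC box occurred 5 times in the *Crabp1* window, and 2.71% of all windows held at least as many, while 35.7% held at least 1. These matches describe the letters and say nothing of whether a factor was bound there.

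The log2 fold changes of the 9 genes come from limma, fitted to log2(normalized count + 1), with tdTOMATO+ over tdTOMATO-. For genes with few reads or a wide spread they can differ from the fold between the group means in either direction, and the values of edgeR and DESeq2 are given where they do. Because the genes were chosen with this contrast known, their differences are given as a description, without a p-value.

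**Figure D1:**
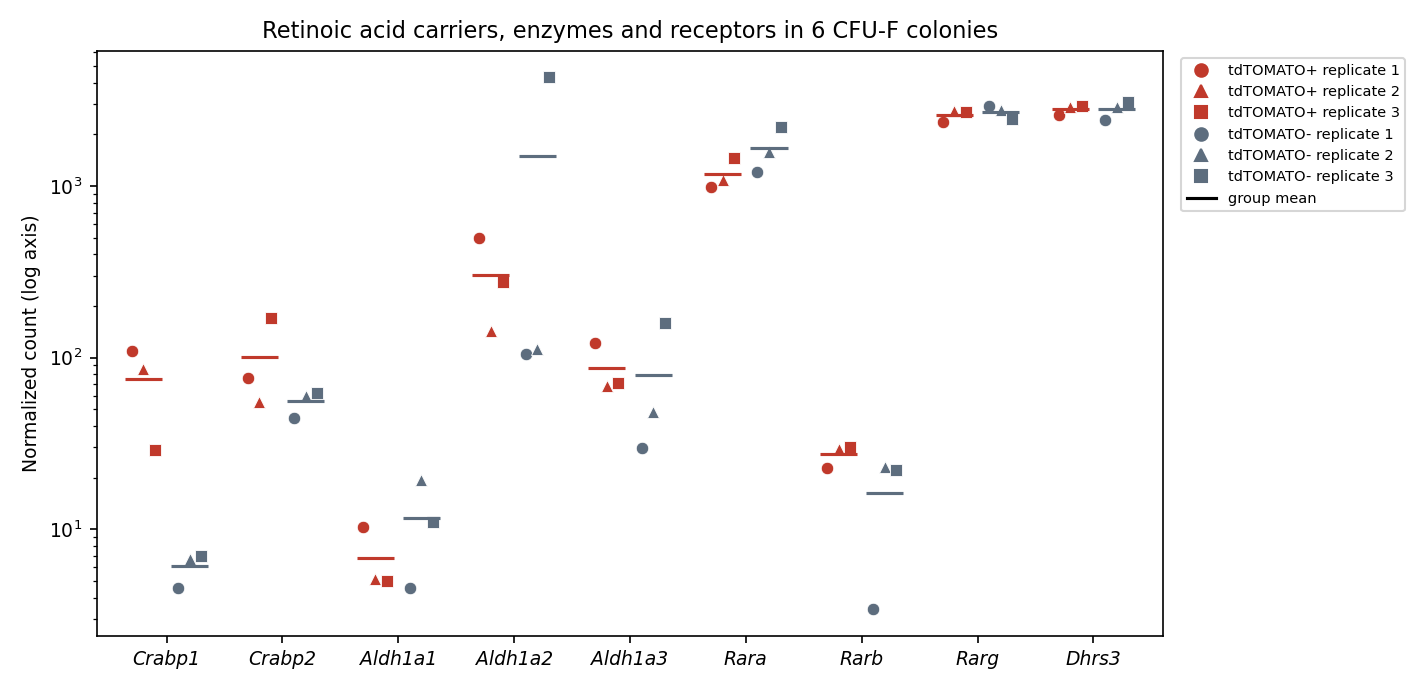
Normalized counts (log axis) of the 9 genes in each of the 6 colonies, tdTOMATO+ in red to the left of tdTOMATO- in grey, with a symbol for each replicate and a bar at the group mean. *Crabp1* is the gene whose groups do not overlap, and *Aldh1a2* has 1 tdTOMATO- colony at 4291 far above the other 5 colonies.

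*Crabp1* (ENSMUSG00000032291, GRCm38 chr9:54764748-54773110, plus strand, 802 exon bases) had normalized counts of 110, 85.8 and 29.1 in the tdTOMATO+ colonies, against 4.58, 6.75 and 7.02 in the tdTOMATO- colonies. Every tdTOMATO+ colony lay above every tdTOMATO- colony, and tdTOMATO+ replicate 3 was the lowest of its group. The means were 75.1 ± 41.6 in the tdTOMATO+ colonies and 6.11 ± 1.34 in the tdTOMATO- colonies (SD, n = 3 each), a log2 fold change of 3.24 (SE 0.51), which was the 10th highest of all genes. Within the tdTOMATO+ colonies the highest colony was 3.79 times the lowest, and within the tdTOMATO- colonies 1.53 times. The values rested on 107, 100 and 29 reads in the tdTOMATO+ colonies and on 4, 7 and 7 reads in the tdTOMATO- colonies. Counting error alone gave exact 95% Poisson intervals of 19.5 to 41.8 normalized counts for the lowest tdTOMATO+ colony and of 2.82 to 14.5 for the highest tdTOMATO- colony, which did not meet. Such intervals cover counting error only, and as *Crabp1* was chosen with its difference in view, they are no test of it.

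*Crabp2* (ENSMUSG00000004885, chr3:87948666-87953376, plus strand) had normalized counts of 76.3, 54.9 and 170 in the tdTOMATO+ colonies, against 44.7, 59.8 and 62.1 in the tdTOMATO- colonies. The groups overlapped, since tdTOMATO+ replicate 2 lay below 2 of the tdTOMATO- colonies. The log2 fold change of 0.69 (SE 0.41) was 0.23 without tdTOMATO+ replicate 3, the colony with the highest *Crabp2* and the lowest *Crabp1* of its group.

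Per kilobase of exon the carriers changed places between colonies. *Crabp1* made up 70.4%, 72% and 22% of the carrier RNA in the tdTOMATO+ colonies, against 14.5%, 15.7% and 15.7% in the tdTOMATO- colonies. *Crabp1* thus outweighed *Crabp2* in tdTOMATO+ replicates 1 and 2, with ratios of 2.38 and 2.58, and not in tdTOMATO+ replicate 3, where the ratio was 0.283. The ratios were 0.169, 0.186 and 0.186 in the tdTOMATO- colonies. The sum of both carriers was 195, 148 and 165 normalized counts per kilobase in the tdTOMATO+ colonies, against 39.5, 53.6 and 55.8 in the tdTOMATO- colonies. All tdTOMATO+ sums thus lay above all tdTOMATO- sums. As the sum contains *Crabp1*, chosen with its difference in view, it in part repeats that difference, and *Crabp2* alone overlapped between the groups.

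The macrophage RNA described above moved with the same groups as *Crabp1*. The summed macrophage markers differed by 1.8-fold between the group means and by 1.07-fold between the highest and the lowest tdTOMATO+ colony. Markers of all leukocytes showed the same, with 7 of 8 past the test, against the same 1.2% of all genes, and sums of 17390 to 20825 normalized counts in the tdTOMATO+ colonies and of 11209 to 11549 in the tdTOMATO- colonies. Endothelial markers, 4 of 6 measured, summed to 151 to 213 normalized counts in the tdTOMATO+ colonies and to 102 to 161 in the tdTOMATO- colonies, with *Pecam1* at 0 in tdTOMATO+ replicate 1. The part of these cells in the *Crabp1* difference was not tested, and in whole colonies fewer cells of a type and less RNA per cell cannot be told apart.

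**Figure D2:**
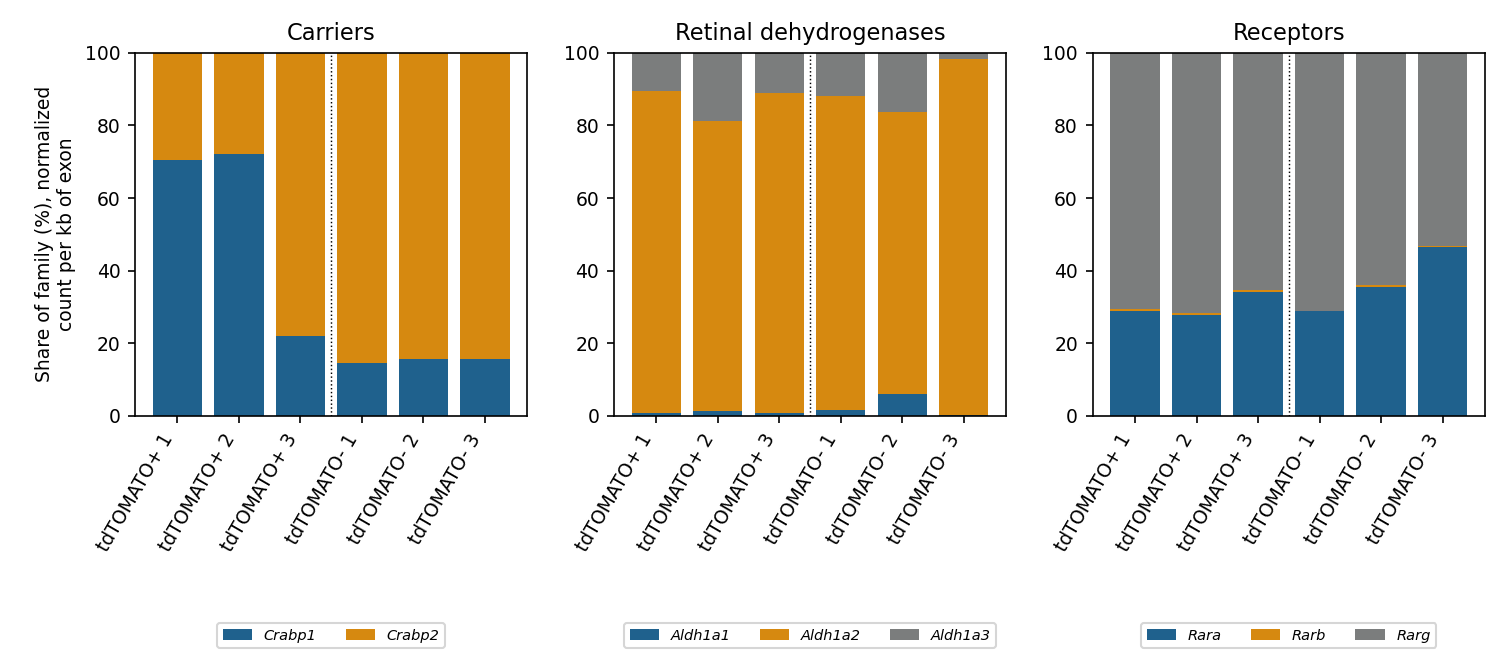
Share of each gene in its family (%), from normalized counts per kilobase of exon, in the 3 tdTOMATO+ colonies to the left and the 3 tdTOMATO- colonies to the right of the dotted line. *Crabp1* holds over 70% of the carrier RNA in tdTOMATO+ replicates 1 and 2 and 22% or less in the other colonies, while *Aldh1a2* and *Rarg* lead their families in all 6.

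The retinal dehydrogenases did not separate the groups. *Aldh1a2* (ENSMUSG00000013584, chr9:71215789-71296243, plus strand), the main retinoic acid-producing enzyme of the early embryo, had normalized counts of 497, 142 and 275 in the tdTOMATO+ colonies, against 105, 112 and 4291 in the tdTOMATO- colonies. The highest colony, tdTOMATO- replicate 3, was 40.7 times the lowest, tdTOMATO- replicate 1, and held 79.1% of the total over the 6 colonies. A share as high in 1 colony was seen for 6 of the 11853 genes whose higher group averaged at least 50 normalized counts (0.0506%). The mean was 305 ± 179 in the tdTOMATO+ colonies and 1503 ± 2415 in the tdTOMATO- colonies (SD, n = 3 each). The log2 fold change was -0.46 with an SE of 1.56 by limma, while edgeR and DESeq2 on recovered reads gave -2.31 and -2.30. By limma it was 1.30 without tdTOMATO- replicate 3, so that the sign turned without this colony. Without it, all 3 tdTOMATO+ colonies lay above both remaining tdTOMATO- colonies. This colony was singled out after its value was seen, and the share of all genes with such a split was not computed.

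*Aldh1a3* (ENSMUSG00000015134, chr7:66390890-66427517, minus strand), a sister enzyme, had normalized counts of 122, 68.6 and 71.3 in the tdTOMATO+ colonies, against 29.8, 48.2 and 159 in the tdTOMATO- colonies. As with *Aldh1a2*, the highest value was that of tdTOMATO- replicate 3 and the lowest that of tdTOMATO- replicate 1, and the groups overlapped. The log2 fold change of 0.45 (SE 0.62) was 1.13 without tdTOMATO- replicate 3. It was -0.06 when tdTOMATO- replicate 1 was left out, and edgeR and DESeq2 gave 0.13 and 0.14 with all 6 colonies. *Aldh1a1* (ENSMUSG00000053279, chr19:20492715-20643465, plus strand), the enzyme of many adult tissues, was near the lower end of detection, with normalized counts of 10.3, 5.15 and 5.02 in the tdTOMATO+ colonies, against 4.58, 19.3 and 11 in the tdTOMATO- colonies. Its groups overlapped as well, with a log2 fold change of -0.57 and an SE of 0.59. It was -0.13 without tdTOMATO- replicate 2 and -1.06 without tdTOMATO- replicate 1.

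*Aldh1a2* was the leading dehydrogenase in every colony when set per kilobase of exon. Its share of the dehydrogenase RNA was 88.5%, 79.8% and 88.1% in the tdTOMATO+ colonies, against 86.3%, 77.5% and 98.1% in the tdTOMATO- colonies. *Aldh1a3* made up most of the rest, 10.6%, 18.9% and 11.2% in the tdTOMATO+ colonies, against 12%, 16.4% and 1.79% in the tdTOMATO- colonies. *Aldh1a1* stayed at or below 6.13% in all 6 colonies. The summed dehydrogenase level was 248, 78.8 and 138 normalized counts per kilobase in the tdTOMATO+ colonies, against 53.9, 63.7 and 1932 in the tdTOMATO- colonies, a wider spread between colonies than that of the carriers or the receptors.

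*Dhrs3* (ENSMUSG00000066026, chr4:144892827-144928209, plus strand), which works against the dehydrogenases by reducing retinal, had normalized counts of 2597, 2877 and 2927 in the tdTOMATO+ colonies, against 2425, 2899 and 3096 in the tdTOMATO- colonies. The groups overlapped, the group means were 2800 ± 178 in the tdTOMATO+ colonies and 2807 ± 345 in the tdTOMATO- colonies (SD, n = 3 each), and the log2 fold change was 0 with an SE of 0.1. It was the most abundant gene of the set per kilobase of exon, at 829 to 1060 normalized counts per kilobase over the 6 colonies.

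The receptors were led by *Rarg*. *Rarg* (ENSMUSG00000001288, chr15:102234938-102257517, minus strand), the receptor best known from cartilage and skin, had normalized counts of 2360, 2743 and 2704 in the tdTOMATO+ colonies, against 2903, 2770 and 2450 in the tdTOMATO- colonies. The groups overlapped, with a log2 fold change of -0.06 and an SE of 0.09. *Rara* (ENSMUSG00000037992, chr11:98927818-98974942, plus strand), the broadly expressed receptor, had normalized counts of 988, 1090 and 1450 in the tdTOMATO+ colonies, against 1210, 1580 and 2200 in the tdTOMATO- colonies. The groups overlapped in that tdTOMATO+ replicate 3 lay above tdTOMATO- replicate 1. The means of *Rara* were 1176 ± 243 in the tdTOMATO+ colonies and 1663 ± 500 in the tdTOMATO- colonies (SD, n = 3 each), a log2 fold change of -0.48 (SE 0.25), which was -0.25 without tdTOMATO- replicate 3.

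*Rarb* (ENSMUSG00000017491, chr14:16430839-16819156, minus strand), itself a textbook target gene of retinoic acid and the holder of the DR5 shown above, had normalized counts of 22.7, 29.2 and 30.1 in the tdTOMATO+ colonies, against 3.43, 23.1 and 22.1 in the tdTOMATO- colonies. The groups overlapped, tdTOMATO- replicate 1 being far below the other 5 colonies, which lay close together. The log2 fold change of 1.06 (SE 0.66) was 0.25 without tdTOMATO- replicate 1, and edgeR and DESeq2 both gave 0.74 with all 6 colonies. That colony had 3 *Rarb* reads, an exact 95% Poisson interval of 0.708 to 10.0 normalized counts. The *Rarb* value is uncertain for a further reason, since 34.1% of its exon bases lie opposite exons of *Top2b*, a topoisomerase gene with 6950, 6767 and 6674 normalized counts in the tdTOMATO+ colonies and 6933, 7003 and 6331 in the tdTOMATO- colonies. The strand setting of the counting is not given in the sources used here, so the share of *Rarb* counts that came from *Top2b* is unknown. *Top2b* itself had a log2 fold change of 0.01 (SE 0.07).

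Per kilobase of exon, *Rarg* made up 70.6%, 71.6% and 65.3% of the receptor RNA in the tdTOMATO+ colonies, against 71%, 64% and 53.1% in the tdTOMATO- colonies. *Rara* made up 28.8%, 27.8% and 34.2% in the tdTOMATO+ colonies, against 28.9%, 35.6% and 46.5% in the tdTOMATO- colonies, and *Rarb* stayed below 1% in all 6. The colony with the largest share of *Rara* was tdTOMATO- replicate 3, the colony with the high *Aldh1a2*. Summed receptor levels were 784, 899 and 972 normalized counts per kilobase in the tdTOMATO+ colonies, against 959, 1016 and 1083 in the tdTOMATO- colonies, and the groups overlapped.

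Set side by side per kilobase of exon, the mean levels over the 6 colonies ran from *Dhrs3* (958 normalized counts per kilobase) and *Rarg* (623) through *Aldh1a2* (399) and *Rara* (325) to *Crabp2* (58.9), *Crabp1* (50.6), *Aldh1a3* (18), *Rarb* (4.13) and *Aldh1a1* (1.87). Neighbours in this order did not overlap in their ranges over the colonies at 3 places, between *Dhrs3* and *Rarg*, between *Rara* and *Crabp2* and between *Aldh1a3* and *Rarb*. The ranges of the other neighbours overlapped. Such ranges pool both groups and do not compare 2 genes within a colony. The place of *Aldh1a2* came from tdTOMATO- replicate 3, at 1900 normalized counts per kilobase, and in each of the other 5 colonies *Aldh1a2*, at 46.5 to 220, lay below *Rara*. *Aldh1a2* had the widest range, 46.5 to 1900 normalized counts per kilobase, and *Crabp1* ranged over 5.71 to 138.

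Across the set, 5 genes had a log2 fold change above 0 and 4 had one below it, with a median of 0, and 5 of the 9 lay within 1 SE of 0. For all 14735 genes, 49% had a log2 fold change above 0. limma called 1 of the 9 higher in the tdTOMATO+ colonies, *Crabp1*, against 1.2% of all genes called higher, and 0 of the 9 lower, against 0.143% of all genes. edgeR and DESeq2 on the recovered reads called the same gene and no other of the 9, against 1.15% and 3.52% of all genes called higher. In 1 of the 9 genes every tdTOMATO+ colony lay above every tdTOMATO- colony, against 9.89% of all genes, and in 0 of the 9 every tdTOMATO+ colony lay below, against 8.33%. As the genes were chosen with this contrast known, these counts describe the set. The call of *Crabp1* was present without tdTOMATO+ replicate 3 and absent when any 1 of the other 5 colonies was left out, while its log2 fold change was 2.86 to 3.81 over these 6 fits. It was absent as well with the replicate number as a block. The same held in limma without the trend of variance on mean level, which called 1 gene of the whole table higher and 0 lower. The lowest colony was tdTOMATO- replicate 1 for 7 of the 9 genes, all but *Rara* and *Rarg*, and the highest was tdTOMATO- replicate 3 for 4 of the 9, *Aldh1a2*, *Aldh1a3*, *Rara* and *Dhrs3*. For *Aldh1a1* the lowest value rested on 4 reads, against 5 in tdTOMATO+ replicate 3. The shares of all genes lowest or highest in these colonies were not computed.

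The rest of the pathway was followed in 6 lists with 71 genes in all, of which 52 were measured and 19, among them *Stra6*, *Lrat* and *Cyp26a1*, were not analysed here. limma called 0 of the 52 higher and 0 lower in the tdTOMATO+ colonies, with adjusted p-values of 0.202 to 0.98, and edgeR likewise called 0 in each direction. At an unadjusted p under 0.05, limma had 6 higher and 1 lower, or 11.5% and 1.92% of the 52, against 7.53% and 4.79% of all genes. DESeq2 called 1 of the 52 higher (*Rai14*) and 1 lower (*Adh1*), against 3.52% and 1.12% of all genes. In 10 of the 52 every tdTOMATO+ colony lay above every tdTOMATO- colony (19.2%, against 9.89% of all genes), and in 2 every tdTOMATO+ colony lay below (3.85%, against 8.33%). The median log2 fold change of the 52 was 0.06, against 0 over all genes.

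**Figure D3:**
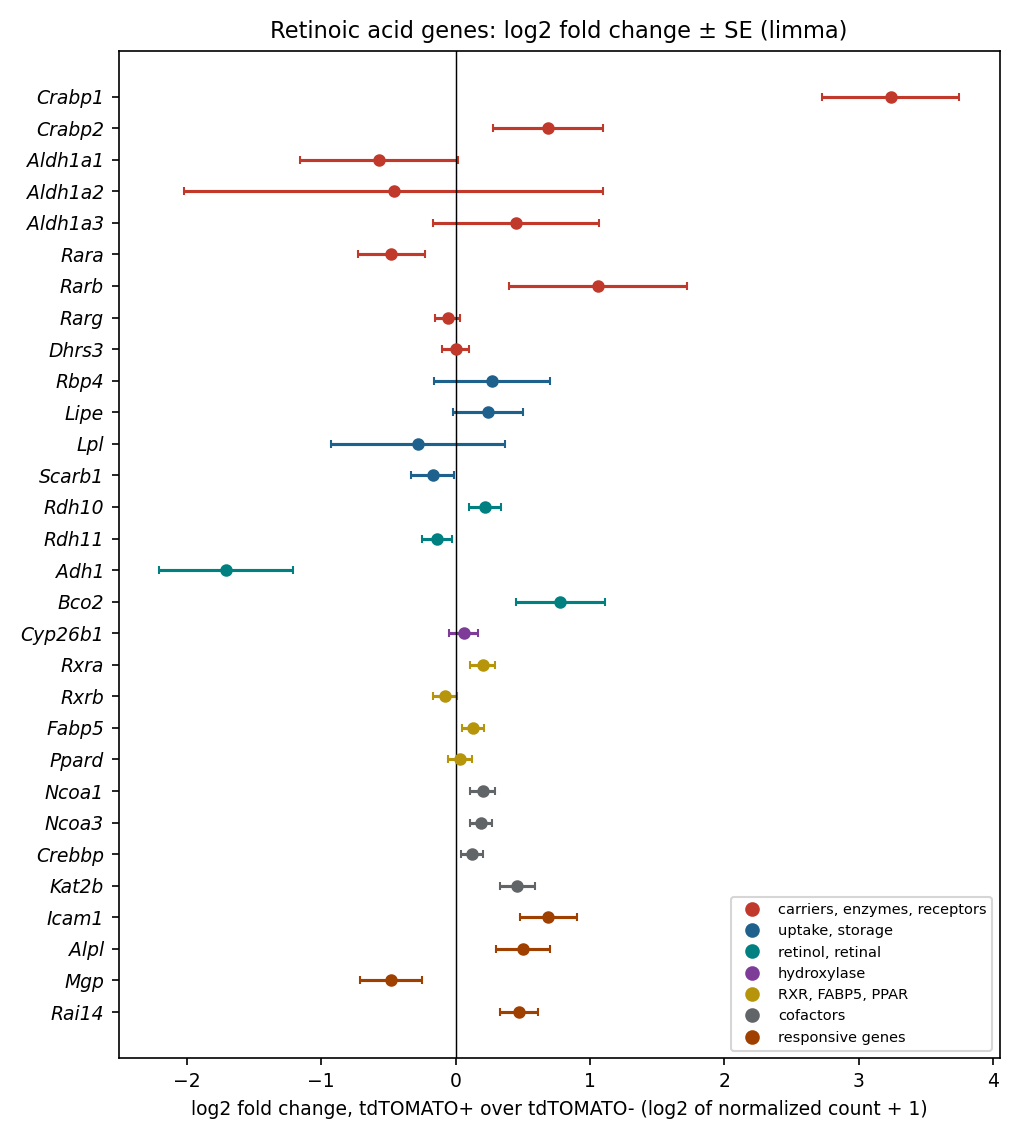
log2 fold change with its SE (limma, tdTOMATO+ over tdTOMATO-, log2 of normalized count plus 1) of the 9 retinoic acid genes and of the 21 named pathway genes, coloured by role. *Crabp1* lies farthest to the right at 3.24 and *Adh1* farthest to the left at -1.71, and *Aldh1a2* has the widest error bar.

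Of the genes for vitamin A uptake, transport and storage, 6 of 12 were measured, and 0 passed the test in either direction. *Rbp4*, the retinol carrier of blood, had normalized counts of 271, 253 and 408 in the tdTOMATO+ colonies, against 132, 301 and 406 in the tdTOMATO- colonies (log2 fold change 0.27, SE 0.43, limma adjusted p = 0.881). *Lpl*, a lipase that also takes up retinyl esters, had normalized counts of 7369, 3529 and 6575 in the tdTOMATO+ colonies, against 2578, 11198 and 10528 in the tdTOMATO- colonies (log2 fold change -0.28, SE 0.65, limma adjusted p = 0.921). In both genes tdTOMATO- replicate 1 was the lowest colony. *Lipe* and *Scarb1*, a lipase and a lipoprotein receptor that also takes up carotenoids, had log2 fold changes of 0.24 and -0.17.

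Of the enzymes between carotene, retinol and retinal, 13 of 15 were measured and 0 passed the test by limma. In 1 of the 13 every tdTOMATO+ colony lay above every tdTOMATO- colony and in 2 below, against 9.89% and 8.33% of all genes. *Adh1*, an alcohol dehydrogenase that oxidises retinol, had the lowest log2 fold change of the 52 genes. It had normalized counts of 43.3, 53.2 and 15.1 in the tdTOMATO+ colonies, against 72.1, 124 and 147 in the tdTOMATO- colonies, and every tdTOMATO+ colony lay below every tdTOMATO- colony. The log2 fold change was -1.71 (SE 0.50), with an adjusted p of 0.213 by limma, 0.212 by edgeR and 0.0187 by DESeq2. *Rdh10*, the main retinol dehydrogenase of the embryo, had normalized counts of 387, 478 and 457 in the tdTOMATO+ colonies, against 339, 415 and 380 in the tdTOMATO- colonies (log2 fold change 0.22, SE 0.12, limma adjusted p = 0.554). *Bco2*, a carotene-cleaving enzyme, was low but did not overlap, with normalized counts of 24.7, 18.9 and 30.1 in the tdTOMATO+ colonies, against 14.9, 15.4 and 11 in the tdTOMATO- colonies (log2 fold change 0.78, SE 0.33, limma adjusted p = 0.400).

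*Cyp26b1* was the measured retinoic acid hydroxylase, 1 of 4 listed, and was abundant, with normalized counts of 3619, 2744 and 2898 in the tdTOMATO+ colonies, against 2881, 3013 and 2931 in the tdTOMATO- colonies. The groups overlapped, and the log2 fold change was 0.06 (SE 0.11, limma adjusted p = 0.893). Degradation of retinoic acid by this enzyme is known to matter for skeletal development in the mouse.

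The RXR partners and the branch in which FABP5 carries retinoic acid to PPARD were measured for 4 of 5 genes, and 0 passed the test. *Rxra* had normalized counts of 2588, 2617 and 2738 in the tdTOMATO+ colonies, against 2017, 2498 and 2407 in the tdTOMATO- colonies (log2 fold change 0.20, SE 0.09, limma adjusted p = 0.423). Its groups did not overlap. *Fabp5*, also without overlap, had normalized counts of 815, 812 and 872 in the tdTOMATO+ colonies, against 718, 782 and 779 in the tdTOMATO- colonies (log2 fold change 0.13, SE 0.08, limma adjusted p = 0.564). *Rxrb* and *Ppard* had log2 fold changes of -0.08 and 0.03. In 2 of the 4 genes every tdTOMATO+ colony thus lay above every tdTOMATO- colony, against 9.89% of all genes.

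All 11 listed coactivators and corepressors were measured, 8 with a log2 fold change above 0, against 49% of all genes, and 0 past the test. In 3 of the 11 every tdTOMATO+ colony lay above every tdTOMATO- colony (27.3%, against 9.89% of all genes). *Kat2b*, a histone acetyltransferase, had normalized counts of 799, 741 and 918 in the tdTOMATO+ colonies, against 548, 534 and 711 in the tdTOMATO- colonies, without overlap, a log2 fold change of 0.46 (SE 0.13, limma adjusted p = 0.202). *Ncoa1* and *Ncoa3*, coactivators that bind ligand-bound receptors, did not overlap between the groups either, with log2 fold changes of 0.20 and 0.19 (limma adjusted p = 0.424 and 0.378). *Crebbp*, a further acetyltransferase, gave 0.12 on the same scale (SE 0.08, limma adjusted p = 0.615).

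Genes known to respond to retinoic acid were measured for 17 of 24, with 10 log2 fold changes above 0, 7 below it and a median of 0.20, and limma called 0 of them. Of all genes, 49% had a log2 fold change above 0. In 4 of the 17 every tdTOMATO+ colony lay above every tdTOMATO- colony (23.5%, against 9.89% of all genes). *Rai14*, named for its induction by retinoic acid, had normalized counts of 10574, 11520 and 12739 in the tdTOMATO+ colonies, against 6807, 9093 and 9466 in the tdTOMATO- colonies. Every tdTOMATO+ colony lay above every tdTOMATO- colony, and the log2 fold change was 0.47 (SE 0.14), with an adjusted p of 0.203 by limma and 0.0421 by DESeq2. *Icam1*, an adhesion molecule that leukocytes also express, had normalized counts of 252, 172 and 236 in the tdTOMATO+ colonies, against 118, 122 and 167 in the tdTOMATO- colonies (log2 fold change 0.69, SE 0.21, limma adjusted p = 0.219). *Alpl*, the alkaline phosphatase of osteoblasts, had normalized counts of 25434, 24530 and 40856 in the tdTOMATO+ colonies, against 23410, 19364 and 19758 in the tdTOMATO- colonies (log2 fold change 0.50, or 0.27 without tdTOMATO+ replicate 3, SE 0.20, limma adjusted p = 0.390). *Mgp*, an inhibitor of mineralisation, leaned the other way and overlapped, with a log2 fold change of -0.48 (SE 0.23, limma adjusted p = 0.478). Most of these genes also answer to other signals. The macrophage markers were higher in the same colonies. Of 6 osteoblast markers, all measured, 4 had a log2 fold change above 0 and 0 passed the test. In 2 of the 6 every tdTOMATO+ colony lay above every tdTOMATO- colony, against 9.89% of all genes. They summed to 99611 to 110348 normalized counts in the tdTOMATO+ colonies and to 33913 to 88301 in the tdTOMATO- colonies. The part of either cell type in these values was not tested.

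The genes whose levels followed *Crabp1* most closely over the 6 colonies were sought by the root mean square difference of log2 values centred for each gene, among genes whose higher group averaged at least 50 normalized counts. The nearest was *Atp6v0d2*, a proton pump subunit known from osteoclasts, at a difference of 0.74 log2 units, with normalized counts of 85.6, 26.6 and 38.2 in the tdTOMATO+ colonies, against 8.01, 4.82 and 5.01 in the tdTOMATO- colonies. *Igfbp2*, which binds insulin-like growth factors, followed at 0.89, with normalized counts of 91.8, 73.8 and 21.1 in the tdTOMATO+ colonies, against 24, 6.75 and 9.02 in the tdTOMATO- colonies. *Igfbp2* shared with *Crabp1* the low value of tdTOMATO+ replicate 3, whereas *Atp6v0d2* was lowest in tdTOMATO+ replicate 2. *Cd163*, a scavenger receptor of macrophages, came next at 0.92, with normalized counts of 81.5, 95.2 and 10 in the tdTOMATO+ colonies, against 10.3, 18.3 and 10 in the tdTOMATO- colonies. *Tmem26*, a transmembrane protein gene, had normalized counts of 482, 285 and 259 in the tdTOMATO+ colonies, against 89.3, 93.5 and 152 in the tdTOMATO- colonies, at a difference of 0.94. *Acp5*, the tartrate-resistant phosphatase known from osteoclasts, had normalized counts of 210, 83.2 and 95.5 in the tdTOMATO+ colonies, against 41.2, 35.7 and 26.1 in the tdTOMATO- colonies, also at 0.94. In *Igfbp2* and *Cd163* the groups overlapped. In the other 3 every tdTOMATO+ colony lay above every tdTOMATO- colony, against 9.89% of all genes. As the genes were sought for a profile like that of *Crabp1*, such a separation is favoured by the search. The macrophage markers described above were higher in the tdTOMATO+ colonies as well, and their part in these profiles was not tested.

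**Figure D4:**
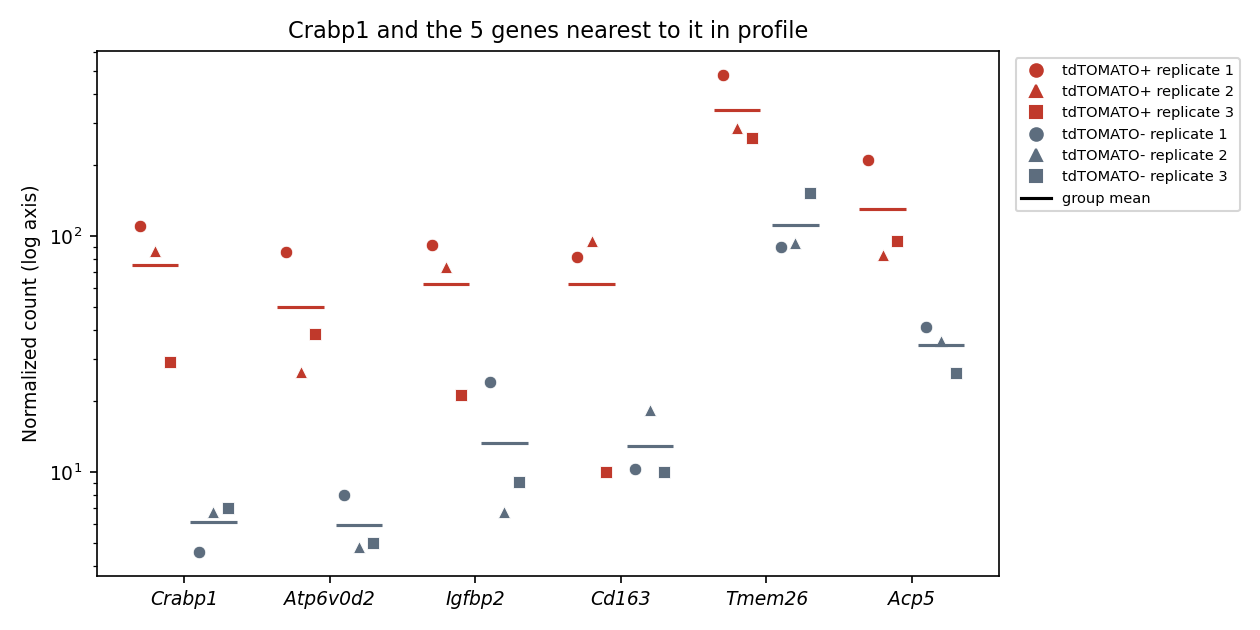
Normalized counts (log axis) of *Crabp1* and of the 5 genes nearest to it in profile, tdTOMATO+ in red to the left of tdTOMATO- in grey, with a symbol for each replicate and a bar at the group mean. *Igfbp2* and *Cd163* share with *Crabp1* a low tdTOMATO+ replicate 3, at 21.1 and 10 normalized counts.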

How the data were processed

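RNA-seq of 3 tdTOMATO+ and 3 tdTOMATO- CFU-F colonies was analysed, grouped by the sample labels. The authors trimmed reads (Trim Galore, Cutadapt), mapped them to GRCm38 (STAR), counted those with a single location per gene (HTSeq), dropped genes whose highest library had fewer than 10 reads and scaled the counts by size factors (DESeq2). The tools' versions are not given in the sources used here. The deposited values are these normalized counts, a signal per gene and library. The authors' fold changes, p-values, gene selections and gene ontology sheets were not used.

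All values (100% within 0.001) were whole multiples of a step per library, so reads were recovered; for replicate 3 of each group the step is so close to 1 that recovery rests on unrounded values. Groups were compared with limma 3.58.1 (R 4.3.3; trend and robust eBayes) on log2(normalized count + 1), two-sided, Benjamini-Hochberg adjusted over all 14735 genes, with a threshold of 0.05. edgeR 4.0.16 (quasi-likelihood) and DESeq2 1.42.0 on recovered reads, pseudocounts of 5 and 0.5, a minimum mean of 10, no trend, a replicate block and leaving out each colony were alternatives. The tests were run on simulated data with changes planted only in genes averaging at least 50 normalized counts. That check does not cover genes with few reads, and its outcome is not given here. Exon lengths and gene coordinates come from GENCODE M21 on GRCm38, promoters from RefSeq on GRCm38.p6. Named genes are the 9 genes, the 4 with the smallest limma p in each of 6 pathway lists, any listed gene past the threshold, and the 5 nearest to *Crabp1* in profile. *Top2b* and single genes of the cell type marker lists are named beside the results they touch. Genes outside the rule in the other observations were picked after their values were seen. The 9 genes and all lists were chosen with earlier results of these data known.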

Additional observations from a re-analysis of the deposited data

How the results depend on the processing

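DESeq2 on recovered reads called 1 pathway gene higher in the tdTOMATO+ colonies and 1 lower, where limma called 0 and 0, and 498 and 159 of all genes, where limma called 177 and 21. limma without the trend called 0 of the 9 retinoic acid genes and 1 and 0 of all genes. The cause was not tested. With the replicate number as a block, 0 of the 9 were called and 124 and 24 of all genes. Colonies of the same number correlated in their deviations from the group means at r = 0.09, 0.02 and 0.18 (across 11853 genes, which are not independent). Colonies of different numbers gave -0.13 to 0.07. tdTOMATO+ replicates 1 and 3 went best with their own number, and tdTOMATO+ replicate 2 went best with tdTOMATO- replicate 1 (0.07). The labels do not say whether the numbers pair the colonies. The main fit had no block, and these values do not settle whether it should.

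Leaving out each colony in turn gave 0 to 1 calls among the 9, 1 to 178 genes called higher and 0 to 44 called lower of all genes, and 0 pathway genes. The count of 178 and the count of 44 were without tdTOMATO- replicate 1. The genes called higher numbered 1 without tdTOMATO+ replicate 2, 9 without tdTOMATO+ replicate 1, 15 without tdTOMATO- replicate 2, 97 without tdTOMATO- replicate 3 and 103 without tdTOMATO+ replicate 3, each fit having fewer samples. 4 pathway genes changed sign. The log2 fold change of *Lpl* (-0.97 to 0.09 over these fits) was 0.05 without tdTOMATO+ replicate 2 or tdTOMATO- replicate 3 and 0.09 without tdTOMATO- replicate 2, that of *Rbp4* (-0.20 to 0.61) was -0.20 without tdTOMATO- replicate 1, that of *Ppard* (-0.02 to 0.09) was -0.02 without tdTOMATO- replicate 1 or tdTOMATO+ replicate 3, and that of *Cyp26b1* (-0.06 to 0.14) was -0.06 without tdTOMATO+ replicate 1. The cause was not tested. *Adh1* (-1.62) and *Rai14* (0.46) passed the threshold by DESeq2 only, and the other 264 values of the named pathway genes under an alternative kept their direction and side. The log2 fold changes of *Lipe* (0.02 to 0.40), *Scarb1* (-0.36 to -0.05), *Rdh10* (0.14 to 0.31), *Rdh11* (-0.25 to -0.05), *Rxra* (0.11 to 0.26), *Rxrb* (-0.16 to -0.04), *Crebbp* (0.06 to 0.17) and *Alpl* (0.27 to 0.63) moved by over 1.5 times without 1 colony. The pseudocounts, the minimum mean and edgeR left the counts of calls within 1.5 times. *Aldh1a1* has no value under the minimum mean of 10.

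*Rarb* rested on 3 to 34 reads over the 6 colonies and *Crabp1* on 4 to 7 reads in the tdTOMATO- colonies, so both carry a wide counting error. The smallest difference that 3 colonies a group can show in such genes was not computed.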

Other observations

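Chosen after its values were seen, *Aldh1a2* was also compared in profile with all genes whose higher group averaged at least 50 normalized counts. The 5 nearest were *Bend5*, *Lum*, *Pde1c*, *Fmo1* and *Slc1a3*, at root mean square differences of 1.04 to 1.11 log2 units, so none followed it as closely as *Atp6v0d2* followed *Crabp1*. *Lum*, which encodes the matrix proteoglycan lumican, had normalized counts of 11.3, 16.3 and 16.1 in the tdTOMATO+ colonies, against 16, 18.3 and 796 in the tdTOMATO- colonies. *Slc1a3*, a glutamate transporter, had normalized counts of 211, 83.2 and 210 in the tdTOMATO+ colonies, against 60.7, 167 and 496 in the tdTOMATO- colonies. Both were highest in tdTOMATO- replicate 3, the colony with the high *Aldh1a2*, which a search for such a profile favours. *Acan*, the aggrecan of cartilage matrix, was at 161 normalized counts in the same colony, at 4.58 and 0.964 in the other tdTOMATO- colonies, and at 2.06, 0 and 0 in the tdTOMATO+ colonies.

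Among the Hox genes known to respond to retinoic acid, *Hoxb4* had normalized counts of 238, 199 and 41.2 in the tdTOMATO+ colonies, against 121, 293 and 6.01 in the tdTOMATO- colonies, and *Hoxb5* had 22.7, 21.4 and 1 in the tdTOMATO+ colonies, against 10.3, 46.3 and 0 in the tdTOMATO- colonies. Both were low in replicate 3 of each group, while *Hoxa5*, with normalized counts of 199, 155 and 154 in the tdTOMATO+ colonies, against 199, 285 and 173 in the tdTOMATO- colonies, ranged over less than 2-fold. These genes were picked after their values were seen and none passed the test by limma.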
